A study of Mus musculus with 12 samples.

Results

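The genes described are 10 genes of glucose uptake and glycolysis, taken by symbol from the 46603 genes of the count tables whatever their levels: Hk1, Hk2, Pfkp, Aldoa, Eno1, Eno2, Pkm, Ldha, Ldhb and the neuronal glucose transporter gene Slc2a3. All 10 were found and all 10 passed the filter on low counts in every comparison. RNA was sequenced from microdissected mouse neocortices, both hemispheres at embryonic day 12.5 (E12.5) and 1 hemisphere at postnatal day 5 (P5). The 12 libraries fall into 4 groups of 3: E12.5 Chd8+/+, E12.5 Chd8+/-, P5 Chd8+/+ and P5 Chd8+/-. Chd8 encodes a chromatin remodeler. The Chd8+/- mice carry a germline deletion of exon 3, made by crossing a floxed allele with mice expressing Cre from the ubiquitous beta-actin promoter and then breeding the Cre out, so that every cell of the animal is heterozygous and no library is specific to 1 cell type. Both genotypes are on the C57BL/6J background. The labels give neither sex nor litter, and no label ties a library to an animal, so that p-values measure the spread between these samples.

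Glycolysis turns glucose into pyruvate, which is either oxidized in mitochondria or reduced to lactate. Many of its steps are served by isoenzymes, encoded by separate genes that catalyze the same reaction with different kinetics and different tissue distribution. In the developing brain, dividing progenitors are known for lactate-producing glycolysis and for HK2 and the M2 form of pyruvate kinase, while HK1, the neuron-specific enolase ENO2 and the transporter GLUT3, the product of Slc2a3, are typical of neurons.

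The libraries held 38774591 to 54695236 counts. Chd8 itself stood at 229 to 236 CPM (gene counts scaled to a common library size) in E12.5 Chd8+/+ and at 161 to 167 CPM in E12.5 Chd8+/-, and at 145 to 151 CPM against 95.0 to 98.6 CPM at P5, as the labels say. E12.5 Chd8+/- replicate 2 stood apart in its tissue markers. Its 4 neocortex markers summed to 472 CPM against 584 to 682 CPM in the other 5 E12.5 libraries, and its 5 meningeal markers to 597 CPM against 251 to 388 CPM. The neocortex markers were above 0 in each of the 4 groups. Stage, sequencing batch and count table coincide, so that they cannot be told apart in the stage differences. In tissue RNA of this kind, fewer cells of a type and less RNA per cell cannot be told apart either. Between E12.5 and P5 the summed level of 8 neuronal markers went from 2401 to 2864 CPM up to 7371 to 7877 CPM, and that of 8 progenitor markers from 4208 to 4521 CPM down to 264 to 316 CPM. Over the same interval 6 astrocyte markers went from 332 to 380 CPM up to 1375 to 1595 CPM, with 5 of 6 called higher, and 9 erythroid markers from 3175 to 4507 CPM down to 106 to 131 CPM, with 8 of 9 called lower. Marker sums of further cell types or regions were higher at P5. These were 6 markers of the oligodendrocyte lineage (109 to 147 against 418 to 469.6 CPM, 6 called higher) and 5 of the striatum (11.2 to 13.2 against 145 to 206 CPM, 5 called higher). The same held for 5 of the choroid plexus (41.4 to 99.6 against 316 to 563 CPM, 4 called higher and 1 lower). It also held for 5 of microglia (26.9 to 34.0 against 87.1 to 117 CPM, 4 called higher and 0 lower). Of 5 endothelial markers, 2 were called higher and 3 lower, and of 5 meningeal markers, 1 higher and 4 lower. The part of these cell types in the stage differences below, those of Aldoc, Pklr and Slc2a1 included, was not tested.

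The stretch of 250 bases before the annotated start of transcription is shown for 2 genes that were lower at P5 (Hk2 and Ldha) and 2 that were higher (Pfkp and Eno2), since the hypoxia-inducible factors and MYC are known regulators of glycolytic genes and are known to bind the letters searched here. The sequences are those of RefSeq on GRCm38.p6, written 5′ to 3′ on the strand of the gene, and each precedes a transcript start of RefSeq; that of Ldha lies inside the Ensembl gene model, whose first exon starts further upstream, and that of Pfkp overlaps the end of its model by a few bases. Capitals mark ACGTG or GCGTG, the core letters of a hypoxia response element, on either strand (CACGT or CACGC when read on the strand shown); the MYC E-box CACGTG contains them. The promoter of Hk2 is at chr6:82774455-82774704 (minus strand), the first of 2 listed for Ldha at chr7:46845554-46845803 (plus strand), that of Pfkp at chr13:6648772-6649021 (minus strand) and that of Eno2 at chr6:124769674-124769923 (minus strand).
Hk2: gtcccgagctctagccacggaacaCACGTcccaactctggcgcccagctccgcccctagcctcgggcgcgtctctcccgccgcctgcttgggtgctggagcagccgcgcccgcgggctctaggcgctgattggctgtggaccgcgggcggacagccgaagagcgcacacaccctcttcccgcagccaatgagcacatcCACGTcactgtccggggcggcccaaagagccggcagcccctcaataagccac
Ldha: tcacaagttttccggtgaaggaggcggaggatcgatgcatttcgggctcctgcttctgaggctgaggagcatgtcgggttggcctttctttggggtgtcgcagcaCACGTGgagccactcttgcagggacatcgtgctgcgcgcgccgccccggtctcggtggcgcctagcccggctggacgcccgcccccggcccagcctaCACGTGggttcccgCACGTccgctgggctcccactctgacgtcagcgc
Pfkp: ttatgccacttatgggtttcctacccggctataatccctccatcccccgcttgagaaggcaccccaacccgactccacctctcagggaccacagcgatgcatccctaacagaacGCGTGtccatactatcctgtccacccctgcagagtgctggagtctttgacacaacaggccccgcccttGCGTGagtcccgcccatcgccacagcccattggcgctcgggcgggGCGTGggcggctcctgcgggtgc
Eno2: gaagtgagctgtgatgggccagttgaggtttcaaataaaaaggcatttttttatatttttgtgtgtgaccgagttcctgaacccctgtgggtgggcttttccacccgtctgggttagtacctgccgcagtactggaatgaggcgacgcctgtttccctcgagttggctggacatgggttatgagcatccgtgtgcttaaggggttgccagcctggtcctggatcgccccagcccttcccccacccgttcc
The motif occurred 2 times in the Hk2 window, 5 times in the Ldha window shown, 3 times in that of Pfkp and 0 times in that of Eno2, each strand counted, so that a CACGTG counts as 2. The second Ldha window, at chr7:46846832-46847081 and not shown, held 1. Of the 16 promoters listed for 9 of the members, 12 held the motif, against 38.6% of the 32851 promoters of the same length in the table. Windows of 1 gene can overlap: 2 of those of Aldoa share their motif and 2 of those of Eno1 share theirs, so that the 12 are not separate sites. By gene, 8 of the 9 members held the motif in at least 1 window, against 41.5% of all genes in the table. A gene with more windows has more room for it, and the members had 16 windows for 9 genes, against 32851 for 27025 genes. The median GC content of the members' promoters was 62.8%, against 52.4% over all, and above 60% GC 9 of 10 promoters of the members held the motif, against 64.1% of all promoters. These letters are a description of the windows, and no binding was measured. The promoter of Slc2a3 is not shown.

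Between E12.5 and P5, each of the 10 genes changed, 5 upward and 5 downward, and in none did the 6 libraries of E12.5 overlap the 6 of P5. Pfkp, Eno2, Hk1, Slc2a3 and Aldoa rose, and Hk2, Pkm, Eno1, Ldhb and Ldha fell. Over all 19676 genes tested, 43.7% were called higher and 44.2% lower at P5 at an adjusted p under 0.05, and the libraries of the stages did not overlap in 75.6%, so that being called is not particular to these genes. Of the 10 genes, 4 were higher by a log2 difference of at least 1, against 26.3% of all genes, and 2 were lower by as much, which is the background share of 20.3%. The median absolute log2 difference was 1.98, against 0.92 over all genes tested.

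**Figure D1:**
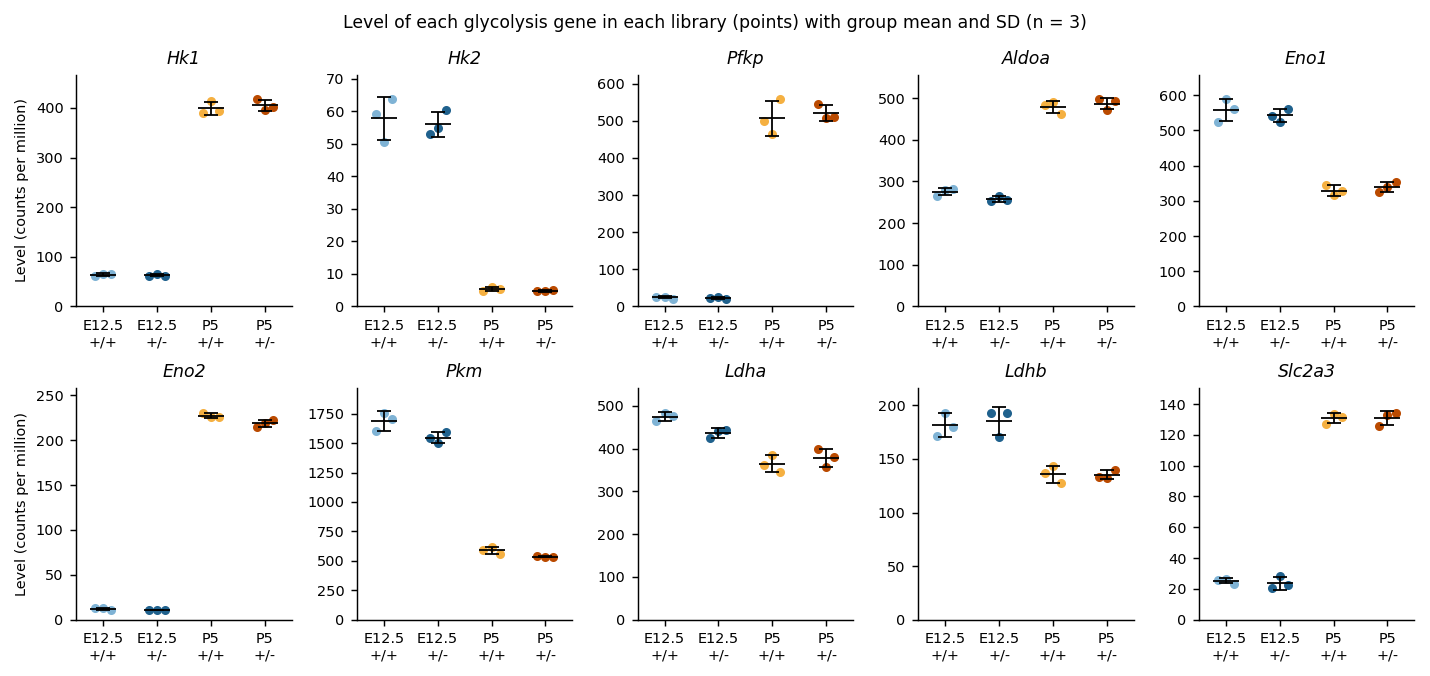
Level of each of the 10 genes in each of the 12 libraries, in CPM on axes that start at 0, with the mean (long bar) and SD (error bar) of the 3 libraries of each group; E12.5 is blue and P5 orange, Chd8+/- in the darker shade. In every panel the 6 libraries of 1 stage lie apart from the 6 of the other, while the genotypes of a stage lie close together.

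The hexokinases, which phosphorylate glucose as it enters the cell, changed in opposite directions. Hk1 (ENSMUSG00000037012, chr10:62268855-62379908) stood at 60.4, 66.0 and 64.3 CPM in E12.5 Chd8+/+, at 62.2, 64.7 and 61.3 CPM in E12.5 Chd8+/-, at 389, 414 and 395 CPM in P5 Chd8+/+ and at 417, 395 and 403 CPM in P5 Chd8+/-. The lowest P5 library was thus far above the highest E12.5 library, and the genotypes overlapped at both stages. The log2 difference of the level between stages was 2.67 ± 0.03 (SE, n = 6 libraries per stage; edgeR adjusted p = 1.56e-17), a 6.37-fold rise of the mean. Hk2 (ENSMUSG00000000628, chr6:82725025-82774454), the isoenzyme of growing and dividing cells, moved the other way. Its levels were 59.0, 50.7 and 63.7 CPM in E12.5 Chd8+/+, 52.9, 54.8 and 60.3 CPM in E12.5 Chd8+/-, 4.64, 5.88 and 5.36 CPM in P5 Chd8+/+ and 4.70, 4.6 and 5.00 CPM in P5 Chd8+/-. All 6 P5 libraries were about an order of magnitude below the E12.5 libraries. The log2 difference was -3.50 ± 0.07 (SE, n = 6 libraries per stage; edgeR adjusted p = 1.54e-15), an 11.3-fold fall of the mean, and only 1.99% of all genes had a log2 difference as low. Among other hexokinases, Hk3 rose from 0.50 to 1.27 CPM at E12.5 to 1.32 to 2.16 CPM at P5, and Hkdc1 rose from 0.026 to 0.16 CPM to 1.60 to 1.99 CPM. Each of these levels was far below that of Hk1.

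Pfkp (ENSMUSG00000021196, chr13:6579768-6648777) encodes the platelet type of phosphofructokinase, the committing step of glycolysis, and rose more than any of the other 9 genes. It stood at 25.9, 26.0 and 21.2 CPM in E12.5 Chd8+/+, at 22.9, 24.7 and 20.5 CPM in E12.5 Chd8+/-, at 499.9, 464 and 558 CPM in P5 Chd8+/+ and at 546, 508 and 510.2 CPM in P5 Chd8+/-. The P5 libraries were uniformly high and the genotypes overlapped. The log2 difference was 4.45 ± 0.07 (SE, n = 6 libraries per stage; edgeR adjusted p = 9.50e-17), a 21.9-fold rise of the mean, which 3.3% of all genes reached. The liver type Pfkl fell from 124 to 150.1 CPM to 96.4 to 105.1 CPM, a log2 difference of -0.43. The muscle type Pfkm rose from 78.9 to 86.5 CPM to 223 to 235 CPM, a log2 difference of 1.46. Exons of Pfkp overlap those of Pitrm1 on the opposite strand over 3.96% of their length, and the counting recorded for P5 did not use strand.

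Aldoa (ENSMUSG00000030695, chr7:126795234-126800751), the main aldolase of most tissues, cleaves fructose bisphosphate into triose phosphates. Its levels were 266, 279 and 282 CPM in E12.5 Chd8+/+, 254, 265 and 255 CPM in E12.5 Chd8+/-, 483, 491 and 463 CPM in P5 Chd8+/+ and 497, 471 and 493 CPM in P5 Chd8+/-. The E12.5 Chd8+/- libraries were just below those of E12.5 Chd8+/+, and all P5 libraries were far above both. The log2 difference between stages was 0.86 ± 0.03 (SE, n = 6 libraries per stage; edgeR adjusted p = 2.18e-12). The brain aldolase Aldoc rose more, from 20.6 to 52.6 CPM to 171 to 205 CPM, a log2 difference of 2.29 ± 0.17 (SE). The lowest Aldoc value at E12.5 was that of E12.5 Chd8+/- replicate 2, the library with the low neocortex markers.

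The enolases, which make phosphoenolpyruvate, changed in opposite directions like the hexokinases. Eno1 (ENSMUSG00000063524, chr4:150236721-150248879), the widely expressed isoenzyme, stood at 525, 588 and 561 CPM in E12.5 Chd8+/+, at 542, 525 and 562 CPM in E12.5 Chd8+/-, at 345, 316 and 327 CPM in P5 Chd8+/+ and at 326, 339 and 354 CPM in P5 Chd8+/-. All P5 libraries were below all E12.5 libraries, with a log2 difference of -0.72 ± 0.04 (SE, n = 6 libraries per stage; edgeR adjusted p = 1.89e-10). Eno2 (ENSMUSG00000004267, chr6:124760053-124769673), the neuron-specific isoenzyme, stood at 13.3, 12.5 and 10.7 CPM in E12.5 Chd8+/+, at 10.6, 10.7 and 10.3 CPM in E12.5 Chd8+/-, at 231, 225 and 226 CPM in P5 Chd8+/+ and at 214, 219 and 223 CPM in P5 Chd8+/-. It was thus low in all embryonic libraries and high in all postnatal ones. Its log2 difference was 4.30 ± 0.04 (SE, n = 6 libraries per stage; edgeR adjusted p = 1.79e-18), a 19.6-fold rise of the mean, which 3.74% of all genes reached. The muscle enolase Eno3 fell from 7.21 to 8.11 CPM to 4.59 to 6.55 CPM.

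Eno1 shares sequence with a near-identical copy, Eno1b, and the division of reads between them is uncertain. Of the 75-base windows of annotated Eno1 transcripts, 22.6% also occur in Eno1b, and 80.6% of the windows of Eno1b occur in other genes, mostly Eno1. Eno1b stood at 15 to 16.5 CPM at E12.5, at 33.2 CPM in P5 Chd8+/+ replicate 2 and 34.8 CPM in P5 Chd8+/- replicate 1, and at 9.11 to 10.7 CPM in the other 4 P5 libraries. The libraries with the high value belong to different genotypes, and their Eno1 levels of 316 and 326 CPM were the lowest at P5. The stage difference of Eno1b did not pass the test, with a log2 difference of 0.19 ± 0.33 (SE; edgeR adjusted p = 0.604).

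Pkm (ENSMUSG00000032294, chr9:59656368-59679375) encodes the muscle and brain type of pyruvate kinase, which makes pyruvate and ATP. It stood at 1598, 1758 and 1706 CPM in E12.5 Chd8+/+, at 1542, 1500.0 and 1597 CPM in E12.5 Chd8+/-, at 591, 619 and 556 CPM in P5 Chd8+/+ and at 540.3, 532 and 534 CPM in P5 Chd8+/-. The 3 Chd8+/- libraries lay below the 3 Chd8+/+ libraries at either stage, by much less than the gap between stages. The log2 difference between stages was -1.53 ± 0.04 (SE, n = 6 libraries per stage; edgeR adjusted p = 1.67e-14), a 2.88-fold fall of the mean. Counts per gene do not separate the M1 and M2 forms, which differ by 1 exon. The liver and red cell pyruvate kinase Pklr stood at 0.37 to 1.30 CPM at E12.5 and 0.19 to 0.53 CPM at P5. Windows of 75 bases shared with other annotated genes made up 17.8% of those of Pkm, 12.6% of those of Ldhb, 2.47% of those of Ldha and at most 0.672% of those of Hk1, Hk2, Pfkp, Aldoa, Eno2 and Slc2a3.

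The lactate dehydrogenases, which interconvert pyruvate and lactate, changed least. Ldha (ENSMUSG00000063229, chr7:46841475-46855627), whose subunit is typical of lactate-producing tissue, stood at 465, 484 and 476 CPM in E12.5 Chd8+/+, at 424, 440.1 and 444 CPM in E12.5 Chd8+/-, at 362, 385 and 346 CPM in P5 Chd8+/+ and at 399, 357 and 379 CPM in P5 Chd8+/-. The E12.5 Chd8+/- libraries lay between the E12.5 Chd8+/+ libraries and the P5 libraries, without overlap with either. The log2 difference between stages was -0.29 ± 0.04 (SE, n = 6 libraries per stage; edgeR adjusted p = 4.32e-06). Ldhb (ENSMUSG00000030246, chr6:142490249-142507957), whose subunit is typical of lactate-consuming tissue, stood at 171, 193 and 180.2 CPM in E12.5 Chd8+/+, at 193, 171 and 193 CPM in E12.5 Chd8+/-, at 136, 143 and 128 CPM in P5 Chd8+/+ and at 134, 133 and 139.9 CPM in P5 Chd8+/-. Genotypes overlapped at both stages, and the P5 libraries were lower, with a log2 difference of -0.44 ± 0.04 (SE, n = 6 libraries per stage; edgeR adjusted p = 1.25e-07). The testis gene Ldhc was at or below 0.13 CPM in every library, at most 6 counts.

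Slc2a3 (ENSMUSG00000003153, chr6:122727809-122801640) encodes GLUT3, the high-affinity glucose transporter of neurons. It stood at 25.9, 26.5 and 23.3 CPM in E12.5 Chd8+/+, at 20.3, 28 and 22.3 CPM in E12.5 Chd8+/-, at 127, 133 and 132 CPM in P5 Chd8+/+ and at 126, 133 and 134 CPM in P5 Chd8+/-. The genotypes overlapped and the stages did not, with a log2 difference of 2.42 ± 0.06 (SE, n = 6 libraries per stage; edgeR adjusted p = 1.80e-14), a 5.37-fold rise of the mean. Slc2a1, which encodes GLUT1, the transporter of the blood-brain barrier and of glia, fell over the same interval. It stood at 134, 133 and 136 CPM in E12.5 Chd8+/+, at 122, 114 and 123 CPM in E12.5 Chd8+/-, at 38.6, 39.7 and 46.9 CPM in P5 Chd8+/+ and at 31.7, 35.6 and 29.1 CPM in P5 Chd8+/-. Its log2 difference between stages was -1.79 ± 0.05 (SE, n = 6 libraries per stage; edgeR adjusted p = 1.06e-13).

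Per kb of merged exon, Pkm was the highest of the 10 genes at both stages, and Pfkp and Eno2 moved up from the low end of the order to its middle. At E12.5 the mean levels were 622 ± 37.7 CPM per kb for Pkm, 153 ± 7.71 for Ldha, 117 ± 7.0 for Ldhb, 102 ± 4.58 for Eno1 and 96.8 ± 4.28 for Aldoa (SD, n = 6). A wide gap separated these from Hk2 at 9.53 ± 0.83, Hk1 at 7.40 ± 0.26, Slc2a3 at 3.37 ± 0.40, Pfkp at 2.50 ± 0.25 and Eno2 at 2.41 ± 0.26 CPM per kb (SD, n = 6). Ldhb and Eno1, Eno1 and Aldoa, and Pfkp and Eno2 are neighbours whose libraries overlapped in these levels. At P5 the wide gap lay lower in the order, between Slc2a3 and Hk2. The levels were 216 ± 13.7 CPM per kb for Pkm, 175 ± 4.94 for Aldoa, 125 ± 6.71 for Ldha, 86.4 ± 3.55 for Ldhb and 62.2 ± 2.62 for Eno1 (SD, n = 6). Below these were Pfkp at 54.7 ± 3.59, Eno2 at 47.4 ± 1.20, Hk1 at 47.1 ± 1.32, Slc2a3 at 18.1 ± 0.48 and Hk2 at 0.84 ± 0.085 CPM per kb (SD, n = 6). Of the neighbours at P5, Eno1 and Pfkp overlapped, as did Eno2 and Hk1. The merged exon length joins all annotated isoforms, and the order depends on it. With the length of the longest protein-coding transcript in its place, Eno1 ranked second at E12.5, at 272 ± 12.2 CPM per kb, Hk1 stood above Hk2 at that stage (14.8 ± 0.51 against 10.3 ± 0.89), and at P5 Aldoa, at 312 ± 8.78, stood above Pkm, at 231 ± 14.6 CPM per kb (SD, n = 6).

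**Figure D2:**
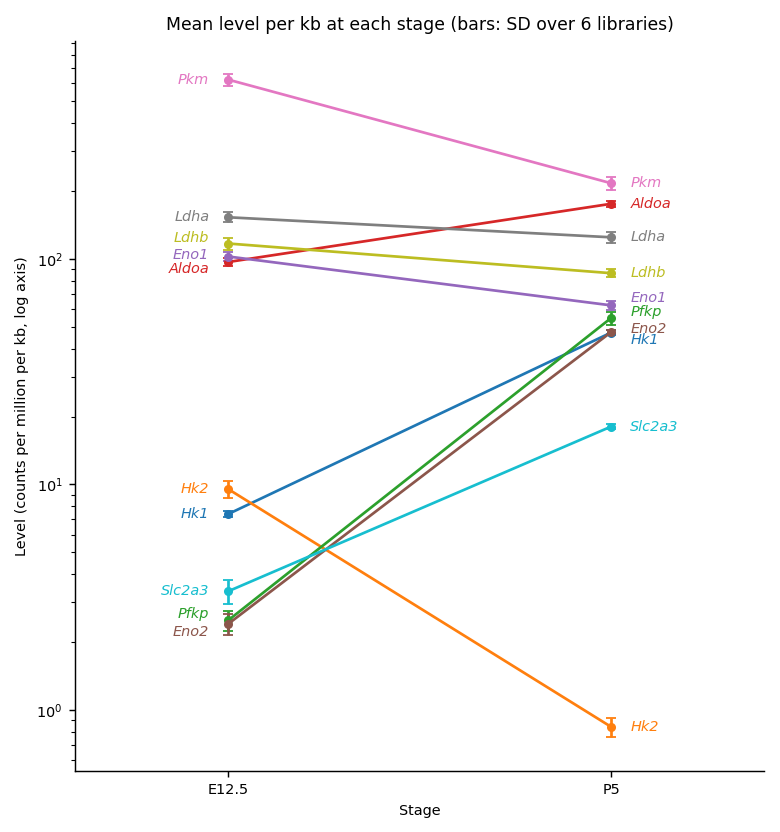
Mean level of each of the 10 genes at E12.5 and P5 in CPM per kb of merged exon, on a log axis, with the SD over the 6 libraries of the stage as bars; the lines join the values of 1 gene. Hk2 drops from 9.53 to 0.84 and crosses Hk1, which climbs from 7.40 to 47.1, while Pfkp and Eno2 climb from the bottom of the order to the middle.

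The balance within a step was measured in each library as the log2 ratio of counts per kb of its isoenzymes, which needs no scaling between libraries. It differed between stages in all 6 pairs compared at an adjusted p under 0.05, although for Ldhb to Ldha the stages overlapped. The largest shift was that of the hexokinases. Hk1 made up 41.7%, 47.7% and 41.4% of the counts per kb of Hk1 and Hk2 in E12.5 Chd8+/+, 45.1%, 45.2% and 41.6% in E12.5 Chd8+/-, and 98.0% to 98.4% in the 6 P5 libraries. At E12.5 both genes were thus present at similar levels, and at P5 nearly all counts were those of Hk1. The log2 ratio of Hk1 to Hk2 was higher by 6.17 at P5 (two-sided exact permutation test over the 924 splits of 12 libraries into 6 and 6, p = 0.0022, the smallest the design can give; 0.0026 adjusted over the 6 pairs).

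Eno2 made up 2.04% to 2.82% of the enolase counts per kb of Eno1 and Eno2 in the 6 E12.5 libraries and 41.8% to 45.0% in the 6 P5 libraries. The log2 ratio rose by 5.02 (exact permutation test, p = 0.0022, adjusted p = 0.0026). For glucose transporters, Slc2a3 made up 7.47% to 10.7% of Slc2a3 and Slc2a1 at E12.5 and 57.6% to 69.1% at P5, so that the neuronal transporter passed from the minor to the major of this pair. The difference in log2 ratio was 4.23 (exact permutation test, p = 0.0022, adjusted p = 0.0026).

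Pfkp went from 3.45% to 4.35% of the counts per kb of the 3 phosphofructokinase genes at E12.5 to 32.4% to 37.0% at P5, a difference of 3.69 in the log2 ratio of Pfkp to Pfkl and Pfkm (exact permutation test, p = 0.0022, adjusted p = 0.0026). Aldoc went from 6.17% to 14.8% of Aldoa and Aldoc to 22.5% to 27.2%, a difference of 1.5 in the log2 ratio (exact permutation test, p = 0.0022, adjusted p = 0.0026). Aldoa remained the major aldolase in every library. Ldhb, in contrast to these pairs, lost a little ground to Ldha: its share was 41.1% to 46.3% at E12.5 and 38.9% to 41.7% at P5, ranges that overlap, and the log2 ratio differed by -0.14 (exact permutation test, p = 0.017, adjusted p = 0.017). In Chd8+/+ alone this difference was -0.034, and in Chd8+/- alone -0.25.

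**Figure D3:**
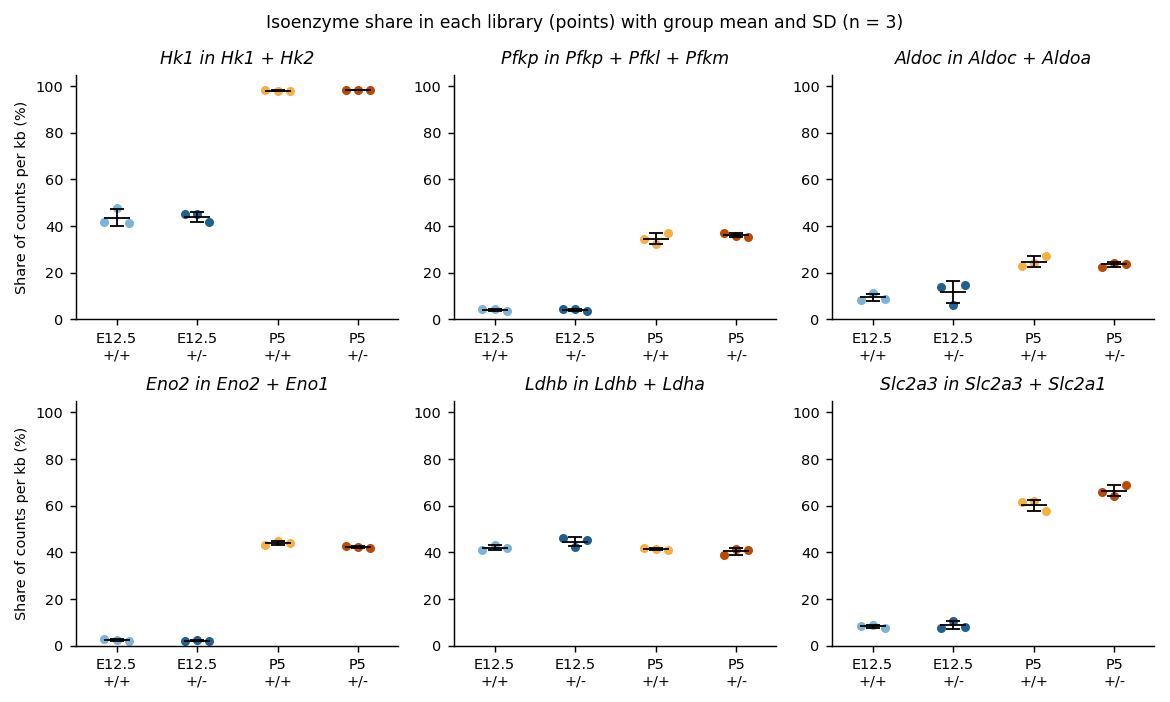
Share of 1 isoenzyme in the counts per kb of its step, in percent, for each of the 12 libraries (points) with the mean and SD of the 3 libraries of each group. The shares of Hk1, Pfkp, Eno2 and Slc2a3 are well apart between stages, that of Aldoc rises less, and that of Ldhb stays between 38.9% and 46.3% in all 12 libraries.

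These shares rest on the gene lengths used. A fixed length cancels from the stage difference of a log2 ratio between single genes, so that such a difference cannot depend on it. Only that of Pfkp, set against Pfkl and Pfkm together, can. With the longest protein-coding transcript as length, Hk1 was 58.9% ± 2.55 and 99.0% ± 0.088 of the hexokinase pair at E12.5 and P5, Pfkp was 7.97% ± 0.71 and 53.8% ± 1.86 of its step, Eno2 1.48% ± 0.18 and 32.6% ± 1.01 of the enolase pair, and Slc2a3 13.7% ± 1.73 and 74.6% ± 3.25 of the transporter pair (SD, n = 6). Hk1 and Hk2 thus exchange rank at E12.5 with the length chosen, and Pfkp is the minor or the major part of its step at P5.

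Summed over its isoenzymes, the hexokinase step went from 16.9 ± 0.76 to 48.0 ± 1.35 CPM per kb (SD, n = 6), the phosphofructokinase step from 61.7 ± 3.23 to 155 ± 3.46 and the aldolase step from 108 ± 4.33 to 231 ± 3.84, each higher at P5 without overlap between the stages. Pyruvate kinase went from 622 ± 37.7 to 216 ± 13.7 CPM per kb and lactate dehydrogenase from 270 ± 9.96 to 211 ± 9.25 (SD, n = 6), lower at P5 and again without overlap. The enolase sum was 104.8 ± 4.58 and 109.6 ± 3.04 CPM per kb (SD, n = 6), with overlapping libraries. With transcript lengths this sum was 275.7 ± 12.2 at E12.5 and 245 ± 7.52 at P5, lower at P5 without overlap. The sum of Slc2a1 and Slc2a3 was 39.6 ± 2.45 and 28.6 ± 1.89 CPM per kb, and with transcript lengths 45.1 ± 2.68 and 44.4 ± 2.17, where the stages overlapped (SD, n = 6). No test was run on these sums.

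Outside the 10 genes and their isoenzymes, most other enzymes of glycolysis fell. Of the 7 other glycolytic enzymes, 2 were called higher and 5 lower at P5, where 43.7% of all genes tested were called higher and 44.2% lower. Their median log2 difference was -0.46 against -0.01 over all genes. Pgk1, which makes ATP from bisphosphoglycerate, fell most (310.2 to 340 CPM at E12.5, 136 to 151 CPM at P5, log2 difference -1.19 ± 0.04 SE), and Pgam2, the muscle mutase, rose most (2.05 to 3.01 CPM at E12.5, 3.77 to 4.29 CPM at P5, log2 difference 0.78 ± 0.09 SE). Of 8 sugar and lactate transporter genes, 6 were called higher and 2 lower, against the same shares of all genes. The highest and the lowest difference of this list both belonged to monocarboxylate transporter genes, while another of that family lay between them. Slc16a7, which encodes the neuronal MCT2, rose from 3.5 to 4.11 CPM to 17.4 to 23.7 CPM (log2 difference 2.40 ± 0.07 SE). Slc16a3, which encodes MCT4 of lactate-exporting cells, fell from 18.9 to 26.2 CPM to 3.17 to 4.02 CPM (log2 difference -2.62 ± 0.07 SE).

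Among 15 regulators of flux into and out of glycolysis, 11 were called higher and 2 lower at P5, against 43.7% and 44.2% of all genes tested. The lowest difference was that of Pdk3, an inhibitory kinase of pyruvate dehydrogenase, at 35.2 to 38.2 CPM at E12.5 and 14.1 to 16 CPM at P5. The highest fitted difference was that of Fbp2, a fructose bisphosphatase, which was near the limit of counting at 0 to 0.041 CPM at E12.5 and 0.20 to 0.39 CPM at P5. With the 12 other isoenzymes, of which 6 were called higher and 4 lower among 11 tested, the wider list of 42 genes had 25 called higher and 13 lower among the 41 tested, against the same shares of all genes.

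Of 9 transcription regulators of the pathway, 5 were called higher and 4 lower, near the shares of 43.7% and 44.2% over all genes tested. Myc rose (12.1 to 15.8 CPM at E12.5, 37.8 to 41.7 CPM at P5, log2 difference 1.49 ± 0.06 SE) while its neural relative Mycn fell (90.3 to 108 CPM at E12.5, 43.9 to 49.7 CPM at P5, log2 difference -1.09 ± 0.05 SE). Of 9 targets of the hypoxia-inducible factors that do not act in glycolysis, 3 were called higher and 5 lower, against the same shares of all genes. They ran from Kdm3a, a histone demethylase (185 to 212 CPM down to 30.1 to 39.5 CPM), to Ndrg1, a stress-responsive gene (2.48 to 4.06 CPM up to 76.5 to 89.1 CPM). All 6 regulators of the Pkm exon choice were called lower at P5, against 44.2% of all genes, from Srsf3 at -1.45 ± 0.03 to Ptbp1 at -2.70 ± 0.04 (log2 difference ± SE). Ptbp1 represses the exon of the M1 form and is abundant in progenitors; it stood at 324 to 348 CPM at E12.5 and 46.7 to 55.4 CPM at P5.

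**Figure D4:**
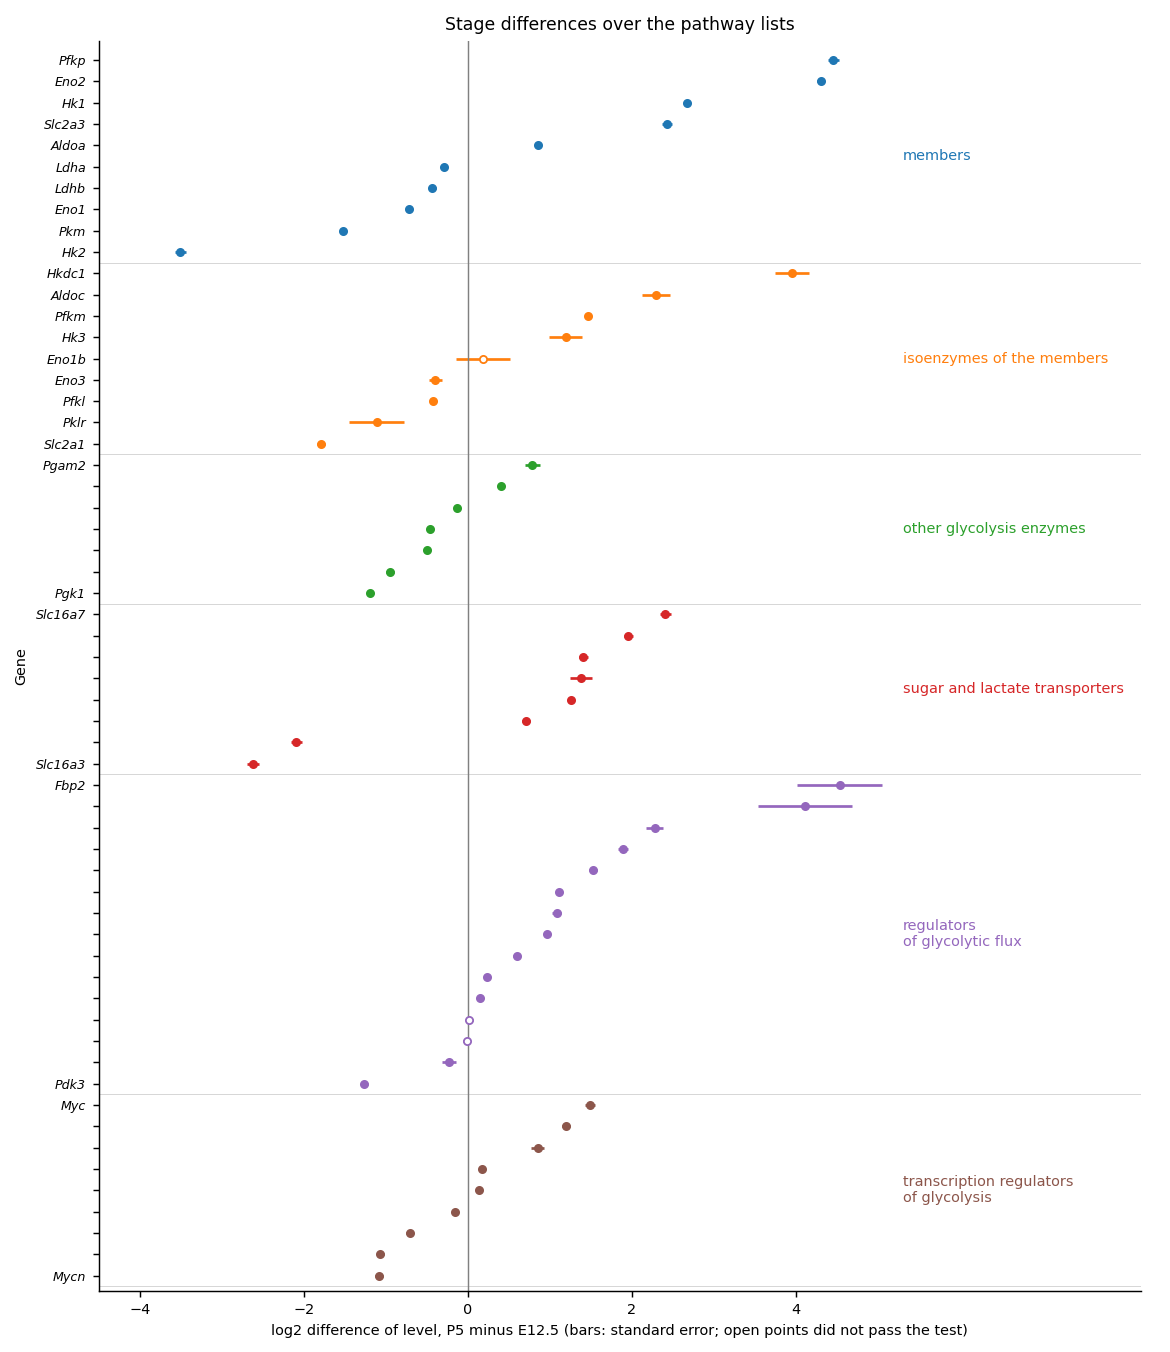
Fitted log2 difference of the level between P5 and E12.5 (positive where higher at P5) for the 10 genes and for 5 lists around them, with the standard error as a bar; open points did not pass the test, genes named in the text are labelled and isoenzymes not reported here are not drawn. Among the 10 genes the values run from -3.50 (Hk2) to 4.45 (Pfkp), and among the 7 other glycolytic enzymes from -1.19 (Pgk1) to 0.78 (Pgam2).

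Between genotypes, no member passed the test at either stage. At E12.5, 0 of 10 were called (edgeR, against 0.00553% of 18081 genes, Chd8 alone), 0 with DESeq2 (against 0.0102%), and 2 had an unadjusted p under 0.05 (against 5.15%). At P5, 0 of 10 were called (against 0.00536% of 18666 genes, Chd8 alone), 0 with DESeq2 (against 5.28%), and 1 had an unadjusted p under 0.05 (against 17.8%). The median log2 difference of the members, Chd8+/- minus Chd8+/+, was -0.10 at E12.5, where 9 of 10 were below 0, and 0.03 at P5, where 7 of 10 were above 0. Over all genes 49.8% were below 0 at E12.5 and 49.6% at P5.

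The genotypes did not overlap for 3 of the 10 genes at E12.5 (Aldoa, Pkm and Ldha), against 11.4% of all genes, and for 2 at P5 (Eno2 and Pkm), against 23.4%. Ldha averaged 475 ± 9.67 CPM in E12.5 Chd8+/+ and 436 ± 10.6 CPM in E12.5 Chd8+/- (SD, n = 3). The log2 difference of -0.12 ± 0.05 (SE) did not pass the test (edgeR, unadjusted p = 0.033, adjusted p = 0.942). At P5 the mean of Ldha was higher in Chd8+/-, 379 ± 21.3 against 364 ± 19.9 CPM (SD, n = 3), with overlap, a log2 difference of 0.07 that ranged from 0.030 (without P5 Chd8+/- replicate 1) to 0.11 (without P5 Chd8+/- replicate 2) with 1 library left out. The difference between the stages in this genotype difference was 0.18 ± 0.08 (SE) on the log2 scale and did not pass the test either (edgeR interaction, unadjusted p = 0.037, adjusted p = 0.472). Of the 10 genes 0 were called for the interaction and 1, Ldha, had an unadjusted p under 0.05, against 0.0% and 10% of the 19676 genes tested.

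Pkm was the only gene of the 10 whose genotypes were apart at both stages, in the same direction. It averaged 1688 ± 81.5 CPM in E12.5 Chd8+/+ and 1546 ± 48.5 CPM in E12.5 Chd8+/- (SD, n = 3; log2 difference -0.13 ± 0.06 SE, edgeR adjusted p = 0.942). At P5 it averaged 589 ± 31.7 against 535 ± 4.50 CPM (SD, n = 3; log2 difference -0.12 ± 0.04 SE, edgeR adjusted p = 0.188, DESeq2 adjusted p = 0.0678). Over the alternatives the adjusted p of Pkm at P5 ranged from 0.0678 to 0.437. Eno2 averaged 12.2 ± 1.34 against 10.5 ± 0.25 CPM at E12.5 and 227 ± 2.84 against 219 ± 4.15 CPM at P5 (SD, n = 3), log2 differences of -0.21 ± 0.09 and -0.04 ± 0.04 (SE; edgeR adjusted p = 0.942 and 0.588). Each of the remaining genes, Hk1, Hk2, Pfkp, Aldoa, Eno1, Ldhb and Slc2a3, had a log2 genotype difference between -0.13 and 0.06, with standard errors of 0.04 to 0.11. Leaving out 1 library moved the E12.5 value of Slc2a3 to between -0.24 and -0.0029 and that of Pfkp to between -0.20 and -0.037, at edgeR adjusted p-values of at least 0.82. The lowest Slc2a3 value was that without E12.5 Chd8+/- replicate 2, the library that stood apart, whose 28 CPM was the highest Slc2a3 level at E12.5; the other 2 Chd8+/- libraries, at 20.3 and 22.3 CPM, lay below the Chd8+/+ libraries. The lowest Pfkp value was that without E12.5 Chd8+/+ replicate 3.

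**Figure D5:**
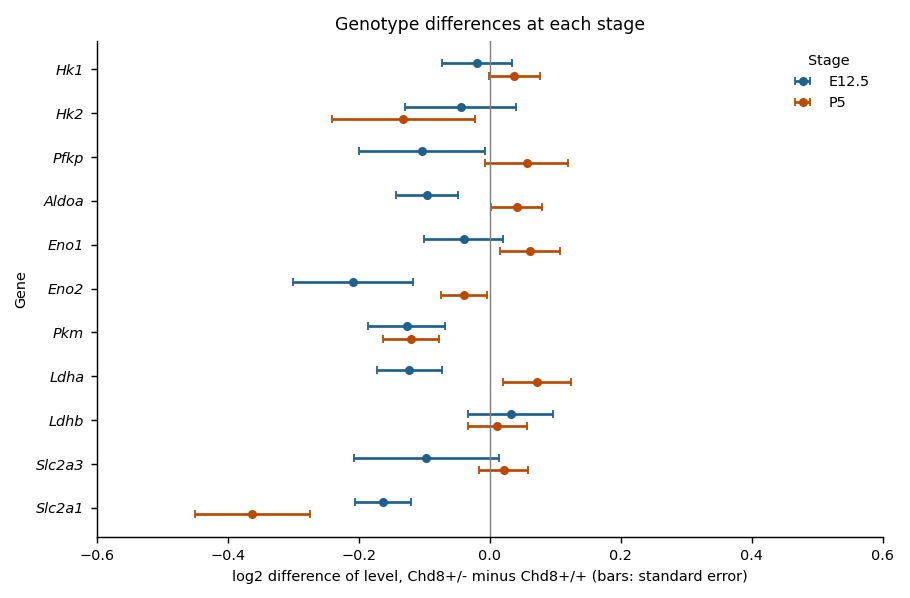
Fitted log2 difference of the level between Chd8+/- and Chd8+/+ (negative where lower in Chd8+/-) at E12.5 and P5 for the 10 genes and for Slc2a1, with the standard error as a bar. The values of the 10 genes lie between -0.21 (Eno2 at E12.5) and 0.07 (Ldha at P5), and Slc2a1 lies at -0.16 and -0.36.

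The isoenzyme balances did not differ between genotypes at an adjusted p under 0.05. Over both stages, with labels permuted within each stage (400 relabelings), Eno2 to Eno1 had a log2 ratio difference of -0.13, Chd8+/- minus Chd8+/+ (two-sided exact permutation test, p = 0.045, 0.27 adjusted over the 6 pairs). Leaving out 1 library moved this value to between -0.18 (without E12.5 Chd8+/+ replicate 3) and -0.076 (without E12.5 Chd8+/+ replicate 1), with exact permutation p-values adjusted over the 6 pairs of 0.06 to 0.42 over the 12 libraries left out. Within P5 the groups did not overlap for this pair, at 43.3%, 45.0% and 44.1% Eno2 in Chd8+/+ and 42.9%, 42.5% and 41.8% in Chd8+/-, which is the smallest exact permutation p of 0.1 that 3 against 3 libraries allow. The other pair without overlap was that of the transporters at P5, where Slc2a3 made up 61.4%, 61.9% and 57.6% in Chd8+/+ and 65.8%, 64.4% and 69.1% in Chd8+/- (log2 ratio higher by 0.38, exact permutation p = 0.1). Over both stages the transporter pair differed by 0.22 (exact permutation test, p = 0.1, adjusted p = 0.3), and by 0.13 without E12.5 Chd8+/- replicate 2, the library that stood apart (exact permutation test, adjusted p = 0.405). The remaining 4 pairs had adjusted p-values of 0.5 to 0.76. No balance passed the test of a difference between stages in this genotype difference (exact permutation test, adjusted p of 0.36 to 0.775). Without E12.5 Chd8+/- replicate 2, the Aldoc to Aldoa difference was 0.31 in place of 0.09, with an exact permutation p of 0.405 adjusted over the 6 pairs, and the Aldoc to Aldoa difference between stages was 1.34.

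At P5 the genotypes of the transporter pair were apart in Slc2a1 and overlapped in Slc2a3. Slc2a3 averaged 131 ± 3.25 CPM in P5 Chd8+/+ and 131 ± 4.46 CPM in P5 Chd8+/- (SD, n = 3; log2 difference 0.02 ± 0.04 SE), and its log2 difference at E12.5 was -0.10 ± 0.11 (SE). Slc2a1 averaged 41.7 ± 4.53 against 32.1 ± 3.28 CPM at P5, with a log2 difference of -0.36 ± 0.09 (SE; edgeR adjusted p = 0.116, DESeq2 adjusted p = 0.00306), and 134 ± 1.47 against 119.7 ± 5.13 CPM at E12.5, with a log2 difference of -0.16 ± 0.04 (SE; edgeR adjusted p = 0.924). Its libraries did not overlap at either stage. The 5 endothelial markers summed to 151 to 158 CPM in E12.5 Chd8+/+ and 137 to 149 CPM in E12.5 Chd8+/-, with 5 of 5 fitted differences below 0, and to 157.2 to 177 CPM in P5 Chd8+/+ and 145 to 157.1 CPM in P5 Chd8+/-, with 4 of 5 below 0 (Cdh5, Flt1, Tek and Pecam1) and Cldn5 at a log2 difference of 0.02. The 5 choroid plexus markers summed to 433 to 563 against 316 to 374 CPM at P5, all 5 below 0, and the 5 striatal markers to 190.1 to 206 against 145 to 169.7 CPM, all 5 below 0. The 8 progenitor markers summed to 283 to 316 CPM in P5 Chd8+/+ and 264 to 292 CPM in P5 Chd8+/-, with 7 of 8 below 0. With edgeR, 0 of these markers were called at P5. With DESeq2, which called Slc2a1, 2 of 5 endothelial markers (Cdh5 and Flt1), 4 of 5 striatal markers, both choroid plexus markers that had an adjusted p and 0 progenitor markers were called lower at P5. Of the 4 neocortex markers, 1 (Neurod6) was also called lower (DESeq2 adjusted p = 0.0484), and 2 of the 4 had differences below 0. The part of these cell types in the P5 differences of Slc2a1 and Pkm was not tested.

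Within groups, the members did not vary as 1 block. Over the 45 pairs of members, the Pearson r of the deviations of log2 CPM from the 4 group means, over the same 12 libraries, had a median of 0.03, was above 0.5 in 9 pairs and below 0 in 22. The highest were Pkm with Ldhb (0.86), Aldoa with Ldha (0.79) and Hk1 with Aldoa (0.79), and the lowest was Pfkp with Pkm (-0.61). The points share their libraries and their scaling, and 12 libraries in 4 groups leave few independent deviations.

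By the same measure over 10823 genes with a mean of at least 10 CPM, the genes most like each member came from outside glycolysis. Pkm was followed most closely by Vps26c (0.98), Psmb7 (0.98) and Psmd6 (0.97), of which the latter pair encode proteasome subunits. Ldhb was followed by Trim37 (0.98), Kcnip3 (0.98) and Spryd7 (0.98), Ldha by Fdps (0.96), Pimreg (0.96) and Rprml (0.95), and Aldoa by Mgst3 (0.98), Snx24 (0.94) and Ddb1 (0.94). For Hk1 these were Ercc3 (0.95), Sdf4 (0.94) and Asb8 (0.92), for Hk2 Fth1 (0.92), Suv39h2 (0.90) and Yy1 (0.88), and for Pfkp Zfp641 (0.94), Slc22a5 (0.91) and Lifr (0.90). Eno1 was nearest to Sdhaf3 (0.93), Aftph (0.91) and Fam136a (0.88), Eno2 to Kifc2 (0.97), Fbxl2 (0.94) and Trpm3 (0.93), and Slc2a3 to Itgb3 (0.97), Serpine2 (0.96) and Chst1 (0.96). With so many genes and 12 libraries, such values of r are a description of these libraries.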

How the data were processed

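Per the labels and the study's methods, mRNA was selected, dUTP libraries were made and paired-end reads were sequenced over 2 lanes. The submitters' processing notes name FastQC 0.11.2, Trim Galore 0.4.1, TopHat2 2.1.0 with Bowtie, featureCounts 1.5.0, DESeq2 1.10.1 and GRCm38. The deposited values are raw counts per gene and sequencing run, which the authors neither normalized nor filtered, with the merged exon length of each gene; the P5 header records Ensembl 82 and no strand option, and for E12.5 the counting command is not given in the sources used here. Symbols were matched for 46005 of 46603 genes.

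The 2 runs of a library were summed. Counts were tested with edgeR 4.0.16 (R 4.3.3; TMM, filterByExpr, quasi-likelihood, Benjamini-Hochberg over all genes tested, threshold 0.05), within a stage for genotype and over all 12 libraries for stage and interaction. CPM use TMM library sizes. Isoenzyme ratios came from counts per kb and were tested by two-sided exact permutation (scipy 1.17.1), adjusted over 6 pairs. The fits were tested on simulated data. Alternatives were DESeq2 1.42.0, limma-voom (limma 3.58.1), other scalings and filters, gene length offsets (loess span 0.5), a replicate block, single runs, single genotypes, each library left out, and, chosen after the data were seen, the longest protein-coding transcript of GENCODE M21 as gene length. Shared windows were matched exactly in the same annotation.

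The 10 members and all lists were chosen with earlier results of these data known. All members are named, and their isoenzymes except for some items not reported here; of each other list, the genes with the highest and the lowest called stage difference; and for each member the 3 genes with the highest r.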

Additional observations from a re-analysis of the deposited data

How the results depend on the processing

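All 10 stage directions and calls held under all 23 alternatives, including each library left out (5 called higher and 5 lower in each). The median stage difference of all genes was -0.01 on the log2 scale, -0.22 with gene length offsets, 0.13 with all genes of at least 1 count and 0.17 with DESeq2, and Ldha, the smallest change, ranged from -0.57 to -0.19. No member was called between genotypes or for the interaction under any alternative (smallest adjusted p 0.513 at E12.5, 0.0678 at P5 and 0.361 for the interaction).

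The wider list had 25 of 41 tested genes called higher and 13 lower at P5, against 43.7% and 44.2% of all genes tested. With a log2 difference of at least 1 it had 17 and 6, against 26.3% and 20.3%. With Chd8+/+ alone the log2 ratios differed between stages by 6.10 (Hk1 to Hk2), 3.66 (Pfkp to Pfkl and Pfkm), 1.68 (Aldoc to Aldoa), 4.99 (Eno2 to Eno1), -0.034 (Ldhb to Ldha) and 4.06 (Slc2a3 to Slc2a1), and with Chd8+/- alone by 6.25, 3.73, 1.32, 5.05, -0.25 and 4.39; none passed, since 3 against 3 libraries allow no exact permutation p below 0.1. Leaving out each library, the stage differences of the pairs kept their call; the Aldoc to Aldoa genotype difference ranged from -0.040 to 0.31.

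Uncalled genotype values near 0 changed sign. At E12.5, Hk2 was 0.0024 with the first run alone. At P5, Ldhb was -0.0050 with all 12 libraries in 1 model and -0.024 with gene length offsets. In the interaction, Ldhb was 0.015 with the first run alone, and Pkm 0.011 with upper quartile scaling, 0.014 with library totals alone and 0.019 with the first run alone. With single libraries left out, the ranges at E12.5 were -0.086 to 0.0053 (Eno1), -0.060 to 0.014 (Hk1), -0.13 to 0.029 (Hk2) and -0.014 to 0.091 (Ldhb), at P5 -0.025 to 0.051 (Ldhb) and -0.0049 to 0.14 (Pfkp), and in the interaction -0.085 to 0.035 (Ldhb) and -0.049 to 0.059 (Pkm). The cause was not tested. At P5, Slc2a1 was called with DESeq2 (adjusted p = 0.00306), with all genes of at least 1 count (0.000311) and without Chd8+/- replicate 2 (0.0425).

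Same-numbered libraries correlated at -0.16 to -0.05 at E12.5 and 0.04 to 0.19 at P5, so that the numbers were not taken to pair samples; with the replicate block 0 genes were called at E12.5, 4 at P5 and 0 for the interaction, 0 of them members. Over all genes at P5, 1 gene was called, 653 with DESeq2 and, with all genes of at least 1 count, 378 higher and 617 lower. Depth limits Ldhc, Hkdc1 and Fbp2, which had few counts at E12.5.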
